A study of Homo sapiens with 12 samples.

Results

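To see which genes of epithelial-mesenchymal transition, adhesion and invasion lay under hnRNPK peaks, 50 genes were taken by name from a list of 7 roles, out of 20033 protein-coding genes of GENCODE release 44 on chromosomes 1 to 22, X and Y. All 50 symbols were found in the annotation. The list holds 7 transcription factors of the transition, 6 cadherin and epithelial junction genes, 8 intermediate filament and matrix genes, 11 protease and plasminogen activation genes, 10 integrin and CD44 genes, 5 invasion signalling genes and 3 metastasis suppressors. Their peaks were not used in the choice, but earlier results of these data were known when it was made. A list counted for a gene when any of its peaks met the gene body or the adjoining 5 kb before the transcription start site (TSS). The TSS was the 5′ end of the GENCODE gene record. Gene lengths and distances follow that record, and other annotated transcripts of a gene may start elsewhere. Promoter peaks, those that met the 1 kb to either side of the TSS, were counted separately.

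The peaks came from ChIP-seq (sequencing of immunoprecipitated chromatin) for hnRNPK, with an anti-hnRNPK antibody, in HCT116, an established human colorectal carcinoma line that the study describes as overexpressing hnRNPK, without naming the antisense control separately. Of the groups, 1 overexpressed CRLM1, a long noncoding RNA (the CRLM1-OE group), while the empty control received the construct alone and the antisense control an antisense construct. There were 12 samples in all, 6 immunoprecipitated and 6 input libraries, with 2 biological replicates per group, and 1 peak list for each immunoprecipitated library against its input. The study asked whether CRLM1 changes where hnRNPK meets chromatin. All groups are cells of 1 tumour line with introduced constructs, and the level of hnRNPK in each group was not measured here.

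Epithelial-mesenchymal transition is the program by which epithelial cells loosen their junctions and gain motility. Factors of the SNAIL, ZEB and TWIST families repress E-cadherin, while integrins, matrix proteins and secreted or membrane proteases act in attachment to the matrix and in its breakdown during invasion. hnRNPK is a protein with KH domains that binds C-rich single-stranded RNA and DNA, and it has known roles in transcription and RNA processing. The study reports it in both the nucleus and the cytoplasm of these cells.

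The 6 lists held 1619 to 4339 peaks on the chromosomes used, with median widths of 506 to 747 bp. Between 59.3% and 68.5% of the peaks of a list scored under 60, while no score was under 50. The CRLM1-OE lists were the longest, with 4339 and 3163 peaks, against 1619 and 2607 in the empty control and 2262 and 2224 in the antisense control. No read counts accompany the lists, so depth is unknown, and list length cannot be told apart from CRLM1. LINC01767, the gene from which CRLM1 is transcribed, held 0 peaks in CRLM1-OE replicate 1, 2 peaks in CRLM1-OE replicate 2 and 0 in the 4 control lists. The study cloned CRLM1 cDNA into its overexpression vector, and whether these 2 peaks hold DNA of that construct was not tested.

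Of the 50 genes, 19 had a peak in at least 1 of the 6 lists (38.0%), against 28.2% of all protein-coding genes. The genes are long, with a median of 61.9 kb against 27.5 kb for all protein-coding genes, and long genes meet more peaks. Among the 200 protein-coding genes nearest to each in length and GC content, 33.8% had a peak, and in strata of 5 length by 5 GC bins the rate was 38.0%. Of the 28 genes over 50 kb, 13 had a peak, and of the 11 genes under 10 kb, 3 did. In the strata of the 28 long genes, 21.6% (MACC1) to 68.0% (CDH3) of protein-coding genes had a peak. In those of the 11 short genes, 4.25% (SNAI2) to 30.5% (BRMS1) did. No such share was computed for a role as a whole, so each role is given beside the range of its genes' strata. The 19 genes carried 24 peaks.

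None of the peaks on these genes lay in the same place in any pair of lists. In 15 of the 19 genes the peak was in 1 list, in 3 genes (ITGB4, MMP24 and LOXL2) in 2 lists, and in ZEB1 in 3 lists. The 6 pairs of peaks that fell on the same gene in different lists included 0 that overlapped, with gaps of 209 to 149857 bp. The share of such pairs that overlap over all protein-coding genes was not computed. The lack of overlap is therefore not compared with a background. The 4 genes with a peak in at least 2 lists are 8.0% of the 50, beside 8.35% of all protein-coding genes and 8.75% of those nearest in length and GC.

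**Figure D1:**
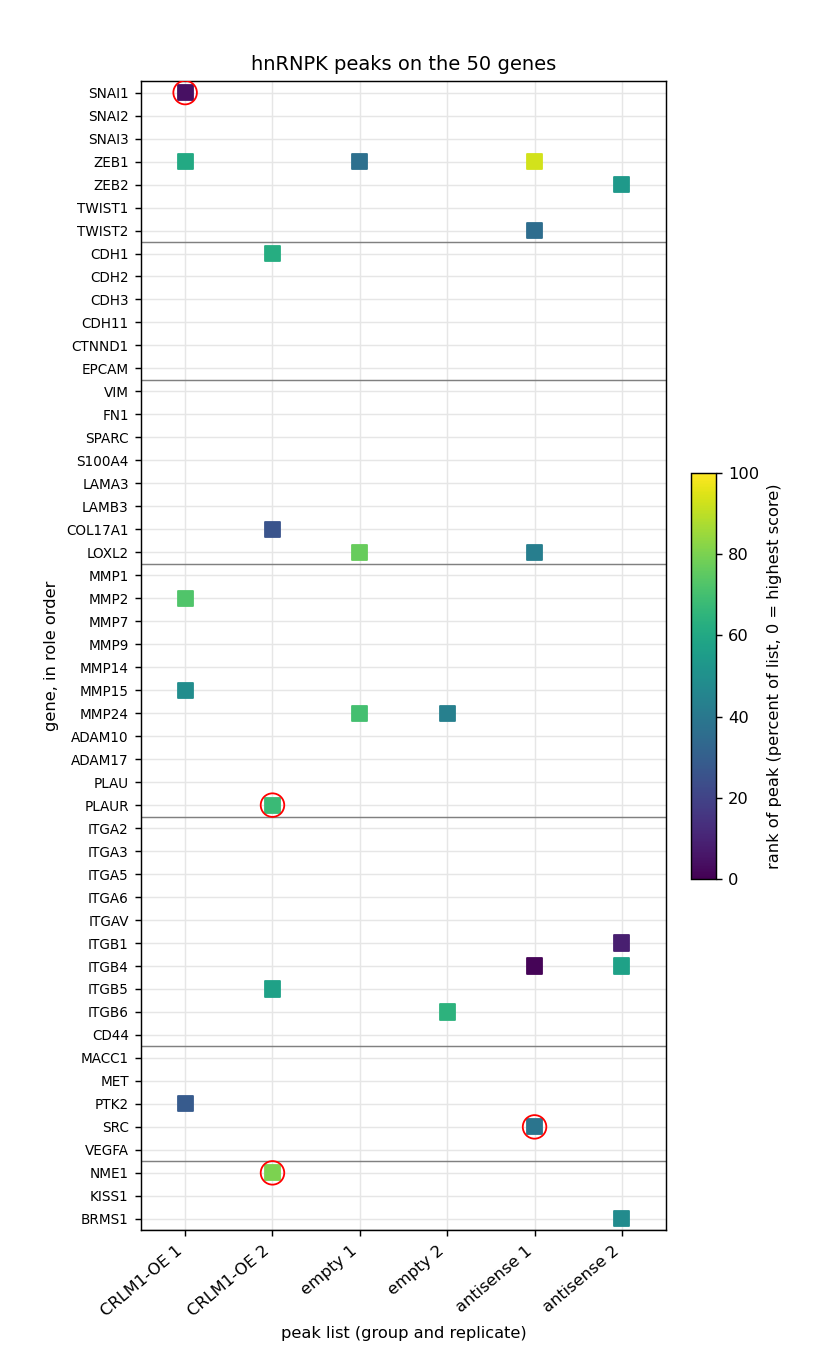
Rows are the 50 genes in order of role, with lines between the 7 roles, and columns are the 6 peak lists. A square marks a peak on the gene body or 5 kb upstream, coloured by its rank as a percent of the list (0 is the highest score), and a red circle marks a peak within 1 kb of the TSS. Most squares stand alone in their row, and only ZEB1 has 3.

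Among the 7 transcription factors, 4 had a peak and SNAI1 was the sole one with a peak at its promoter. In their length and GC strata, 4.25% (SNAI2) to 55.1% (ZEB1) of protein-coding genes had a peak. SNAI1 encodes Snail, a zinc finger repressor of E-cadherin. Its peak in CRLM1-OE replicate 1 spanned chr20:49982275-49983357 and covered the TSS, with its midpoint 164 bp upstream, and it ranked 183 of 4339 (top 4.22%, score 92.3). In the other lists the nearest peak lay 243384 bp from the TSS (CRLM1-OE replicate 2), 215849 and 426849 bp (empty control replicates 1 and 2) and 72126 and 560761 bp (antisense control replicates 1 and 2). The promoter peak was thus present in 1 CRLM1-OE list and absent from the other, as from all 4 control lists.

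The SNAI1 peak was GC-rich, with 68.7% GC over its 1083 bp.

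ZEB1 encodes a zinc finger E-box repressor of E-cadherin, and its peaks were intronic and scattered. They lay at chr10:31372620-31373226 in CRLM1-OE replicate 1 (midpoint 54428 bp past the TSS, rank 2627 of 4339), at chr10:31515808-31516696 in empty control replicate 1 (197757 bp, rank 592 of 1619) and at chr10:31365456-31365950 in antisense control replicate 1 (47208 bp, rank 2107 of 2262). All 3 were in a replicate 1 list, 1 for each group, and the nearest peaks of the replicate 2 lists lay 285783 to 1106316 bp from the TSS. The closest pair of these peaks was 6669 bp apart. ZEB2, a paralogue of ZEB1, had an intronic peak 127338 bp past the TSS in antisense control replicate 2. TWIST2, a basic helix-loop-helix factor, had an intronic peak 3509 bp past its TSS in antisense control replicate 1.

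The 200 bases nearest the centre of the ZEB1 peak of CRLM1-OE replicate 1, at chr10:31372823-31373022 (GRCh38, plus strand, which is the strand of the gene), are shown as an AT-rich intronic window. Here and in the sequences of other peaks, capitals mark runs of at least 4 C or 4 G, the latter being C runs on the other strand, since hnRNPK is known to bind C-rich stretches.
ZEB1: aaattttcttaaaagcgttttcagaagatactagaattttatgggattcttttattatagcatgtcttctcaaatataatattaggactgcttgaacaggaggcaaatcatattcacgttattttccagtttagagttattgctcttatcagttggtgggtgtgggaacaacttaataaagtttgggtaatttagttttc
The window had 31.0% GC and 0 runs, so that it holds no capitals.

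SNAI2 (Slug), SNAI3 and TWIST1 had no peak in any list. For SNAI2 the nearest peaks lay 496689 and 377622 bp from the TSS in the CRLM1-OE lists, 362483 and 613494 bp in the empty control and 2511697 and 466373 bp in the antisense control. For SNAI3 they lay 70898 and 5940 bp away with CRLM1-OE, 352585 and 20240 bp in the empty control and 12925 and 28915 bp in the antisense control. The SNAI3 peak of CRLM1-OE replicate 2, at chr16:88692060-88692835, thus missed the 5 kb upstream window by 553 bp. For TWIST1 the closest peak, in empty control replicate 1, was 8926 bp outside the window.

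**Figure D2:**
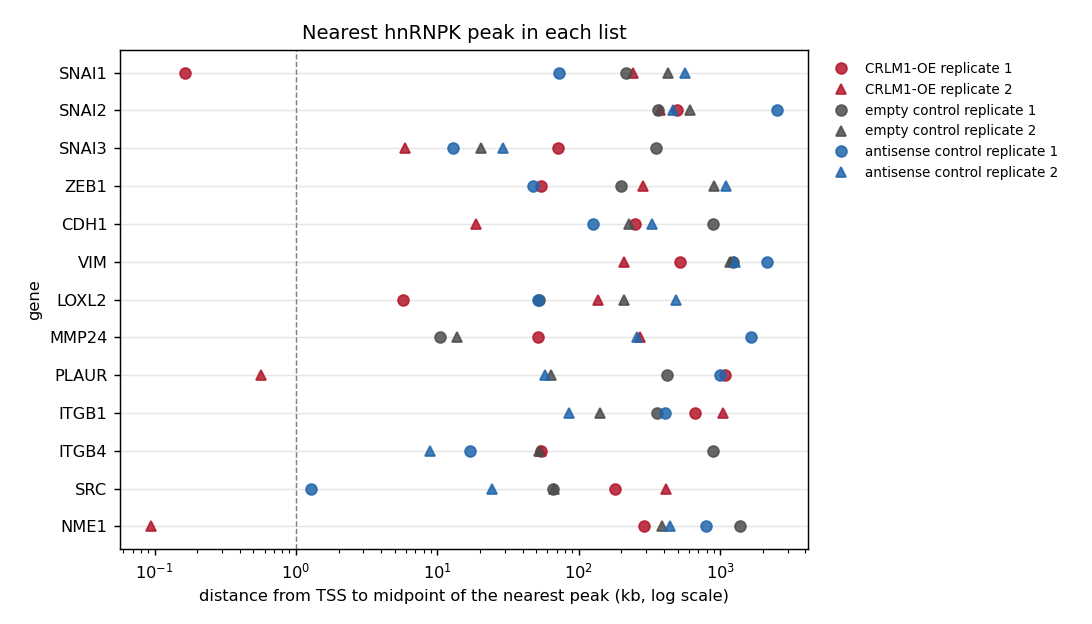
Each row is a gene named by the rule or by the study as a gene of the transition, and each point is 1 list, giving the distance from the TSS to the midpoint of the nearest peak in kb on a log axis. The dashed line marks 1 kb. SNAI1, PLAUR and NME1 each have 1 CRLM1-OE point left of the line, while the other CRLM1-OE list lies 243384, 1082779 and 287472 bp away.

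Of the 6 cadherin and junction genes, only CDH1 had a peak, while 28.4% (CTNND1) to 68.0% (CDH3) of protein-coding genes in their strata did. CDH1 encodes E-cadherin, the adhesion receptor of epithelial junctions. The peak, in CRLM1-OE replicate 2, spanned chr16:68755323-68756518 in an intron, 18628 bp past the TSS, and ranked 1961 of 3163 (score 55.0). In the other lists the nearest peak to the CDH1 TSS was 248783 bp away (CRLM1-OE replicate 1), 894903 and 226933 bp (empty control) and 126467 and 331576 bp (antisense control). The same peak was the nearest to the adjoining P-cadherin gene CDH3, 27855 bp outside its window. CDH2 (N-cadherin), CDH11, CTNND1 (p120 catenin) and EPCAM had no peak, and their nearest lay 34310 bp (EPCAM) to 116936 bp (CDH11) outside the windows.

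In the CDH1 peak 32.2% of the 16-base words occur at least 50 times in the genome. Of the 24 peaks, 18 exceeded the median share of such repeated words in their own list, and the share ranged from 0.671% to 49.5%. How reads of repeated sequence were placed is not given in the sources used here, and its part in these peaks was not tested.

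The intermediate filament and matrix genes had peaks on 2 of 8, with shares of 12.3% (VIM) to 68.0% (LOXL2) in their strata. COL17A1, a transmembrane collagen of hemidesmosomes, had an intronic peak in CRLM1-OE replicate 2, 40273 bp past the TSS and ranked 819 of 3163. LOXL2, a lysyl oxidase that cross-links collagen, had intronic peaks at chr8:23372380-23372962 in empty control replicate 1 (rank 1243 of 1619) and at chr8:23373172-23373746 in antisense control replicate 1 (rank 955 of 2262). The LOXL2 peaks were 209 bp apart, the closest of the 6 same-gene pairs, and lay 52657 and 51869 bp past the TSS. A further peak of CRLM1-OE replicate 1, ranked 147 of 4339 (top 3.39%), lay 5695 bp upstream of the LOXL2 TSS and missed the window by 373 bp. The nearest peaks of the remaining lists were 137263 bp (CRLM1-OE replicate 2), 208938 bp (empty control replicate 2) and 489357 bp (antisense control replicate 2) from the TSS.

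VIM, which encodes vimentin, the intermediate filament of mesenchymal cells, had no peak near it in any list. Its nearest peaks were 515722 and 209312 bp from the TSS with CRLM1-OE, 1225095 and 1179924 bp in the empty control and 2132978 and 1280867 bp in the antisense control. The CRLM1-OE lists, which are the longest, held the closest peaks to VIM, none within 200 kb. FN1 (fibronectin), SPARC, S100A4 and the laminin genes LAMA3 and LAMB3 likewise had none, with gaps of 21179 bp (FN1) to 366669 bp (LAMB3) to the window.

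Proteases and plasminogen activation genes had peaks on 4 of 11, with shares of 8.71% (MMP7) to 62.0% (MMP2) in their strata. PLAUR encodes the urokinase receptor, and its peak in CRLM1-OE replicate 2, chr19:43670680-43671546, lay upstream with its edge 133 bp and its midpoint 566 bp from the TSS. It ranked 2147 of 3163 (score 54.0). In the other lists the nearest peak to the PLAUR TSS was 1082779 bp away (CRLM1-OE replicate 1), 418151 and 63670 bp (empty control) and 999270 and 57491 bp (antisense control). The promoter peak was again in 1 of the 2 CRLM1-OE lists. MMP24, a membrane-type metalloprotease, had intronic peaks in both empty control lists, at chr20:35236831-35237542 (rank 1137 of 1619) and chr20:35240207-35240668 (rank 1125 of 2607), 2664 bp apart and 10496 and 13747 bp past the TSS. They also meet the rule for MMP24OS, which overlaps it. In CRLM1-OE replicate 1 a peak ranked 137 of 4339 (top 3.16%) lay 153 bp beyond the MMP24 3′ end, 51200 bp from the TSS. The nearest peaks of the remaining lists were 270721 bp (CRLM1-OE replicate 2) and 1654447 and 257287 bp (antisense control) from the MMP24 TSS.

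MMP2, which encodes gelatinase A, had an intronic peak in CRLM1-OE replicate 1, 53249 bp past its TSS (rank 3139 of 4339). MMP15, another membrane-type metalloprotease, had a peak in the same list 4433 bp upstream (rank 2112 of 4339), where it also overlaps the neighbouring gene USB1. MMP1, MMP7, MMP9, MMP14, ADAM10, ADAM17 and the urokinase gene PLAU had no peak, with gaps of 13236 bp (ADAM17) to 490964 bp (MMP1).

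The PLAUR peak is shown as a promoter peak of low GC content, 41.6% over its whole length beside 68.7% for SNAI1. The 200 bases at its centre, chr19:43671013-43671212 read on the minus strand (the gene strand), hold 1 C run, in capitals, and have 29.5% GC.
PLAUR: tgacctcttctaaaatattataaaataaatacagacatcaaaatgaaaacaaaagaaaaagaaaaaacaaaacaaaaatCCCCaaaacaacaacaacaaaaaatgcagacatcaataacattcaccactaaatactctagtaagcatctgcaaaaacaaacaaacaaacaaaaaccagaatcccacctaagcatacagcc
In the whole PLAUR peak 49.5% of the 16-base words occur at least 50 times in the genome, the highest share among the 24 peaks, beside 0.843% in the SNAI1 peak.

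Peaks lay on 4 of the 10 integrin and CD44 genes. These were the 4 beta subunit genes of the list, ITGB1, ITGB4, ITGB5 and ITGB6, and not the 5 alpha subunit genes or CD44, a split that was noted after the values were seen. In the length and GC strata of these beta genes, 41.6% (ITGB4) to 62.0% (ITGB5) of protein-coding genes had a peak. In those of the alpha genes and CD44, 27.2% (ITGA3) to 55.1% (ITGA2) did. The split did not recur among 17 other integrin genes. There 5 of 13 alpha subunit genes (ITGA8, ITGA9, ITGA11, ITGAD and ITGAE) and 1 of 4 beta subunit genes (ITGB2) had a peak. The share of all protein-coding genes was 28.2%, which is not matched for length or GC content. ITGB4, the beta subunit of the hemidesmosome integrin, had a peak in both antisense control lists and in no other. In replicate 1 it spanned chr17:75737815-75738906, in an intron 17032 bp past the TSS, and ranked 20 of 2262 (top 0.884%, score 115), the highest rank among the 24 peaks. In replicate 2 it spanned chr17:75729764-75730573, 8840 bp past the TSS, and ranked 1276 of 2224 (score 54.5). The ITGB4 peaks were 7241 bp apart. In the other lists the nearest peak lay 53603 and 54043 bp (CRLM1-OE) and 889858 and 52682 bp (empty control) from the TSS.

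The central 200 bases of the replicate 1 ITGB4 peak, chr17:75738261-75738460 on the plus strand (the gene strand), are printed as the window of highest rank, with runs of at least 4 C or G in capitals.
ITGB4: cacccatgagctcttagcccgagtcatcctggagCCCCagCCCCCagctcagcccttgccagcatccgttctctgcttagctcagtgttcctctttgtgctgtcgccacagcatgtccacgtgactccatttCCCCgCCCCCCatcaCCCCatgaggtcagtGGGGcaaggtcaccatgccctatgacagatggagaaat
They hold 6 runs, 5 of them of C, the longest of 6 bases, at 59.0% GC.

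ITGB1, the beta subunit shared by most matrix-binding integrins, had a peak in antisense control replicate 2 at chr10:32920678-32921273. It lay 84817 bp past the annotated TSS in an exon of the gene and ranked 183 of 2224 (top 8.23%, score 75.5). In this peak 49.2% of the 16-base words occur at least 50 times in the genome. The nearest peaks of the other lists were 659076 and 1038393 bp (CRLM1-OE), 359953 and 142033 bp (empty control) and 405605 bp (antisense control replicate 1) from the ITGB1 TSS. ITGB5 met the rule through a peak of CRLM1-OE replicate 2 that touched its 3′ end, 139816 bp past the TSS (rank 1815 of 3163). ITGB6 had an intronic peak in empty control replicate 2, 67292 bp past the TSS (rank 1671 of 2607). ITGA3 and ITGA5 were the closest without a peak, with gaps of 16447 and 24601 bp, followed by ITGA6, CD44, ITGAV and ITGA2 (50648 to 232061 bp).

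Of the 5 invasion signalling genes, SRC and PTK2 had peaks, while 21.6% (MACC1) to 55.1% (MET) of protein-coding genes in their strata did. SRC, a tyrosine kinase of focal adhesions, had a peak in antisense control replicate 1 at chr20:37345557-37346369 (rank 877 of 2262, score 59.1). It lay in an intron with its near edge 872 bp and its midpoint 1278 bp past the TSS, so that it counted at the promoter by its edge and not by its midpoint. The nearest peaks of the other lists lay 180468 and 416333 bp (CRLM1-OE), 65837 and 66552 bp (empty control) and 24290 bp (antisense control replicate 2) from the SRC TSS. The 2 empty control peaks were beyond the 3′ end of the gene by 4141 and 4955 bp. PTK2, the focal adhesion kinase, had an intronic peak in CRLM1-OE replicate 1, 42291 bp past the TSS (rank 1236 of 4339). MACC1, MET and VEGFA had none, with gaps of 61651, 306649 and 39533 bp.

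The central 200 bases of the SRC peak, chr20:37345863-37346062 on the plus strand (the gene strand), are shown as the most C-rich of the windows, with the runs in capitals.
SRC: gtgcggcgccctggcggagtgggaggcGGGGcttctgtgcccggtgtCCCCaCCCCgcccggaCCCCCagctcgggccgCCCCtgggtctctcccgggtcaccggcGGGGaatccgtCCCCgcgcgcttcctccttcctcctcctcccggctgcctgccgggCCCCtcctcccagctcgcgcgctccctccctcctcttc
They hold 8 runs, 6 of them of C, at 77.5% GC.

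Metastasis suppressors had peaks on NME1 and BRMS1 but not on KISS1, 93886 bp away. The shares in their strata were 10.1% (KISS1) to 30.5% (BRMS1). NME1, a nucleoside diphosphate kinase, had a peak in CRLM1-OE replicate 2 at chr17:51152849-51154460 that covered its TSS (midpoint 95 bp past it) and ranked 2535 of 3163 (score 52.3). The same peak meets the rule for the readthrough gene NME1-NME2. The other lists had their nearest peak 287472 bp (CRLM1-OE replicate 1), 1375181 and 386464 bp (empty control) and 792799 and 439809 bp (antisense control) from the NME1 TSS. BRMS1 had a peak in antisense control replicate 2, 3268 bp upstream (rank 1065 of 2224), which overlaps B4GAT1-DT and also meets the rule for B4GAT1, and in CRLM1-OE replicate 1 a peak fell 598 bp outside its window.

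**Figure D3:**
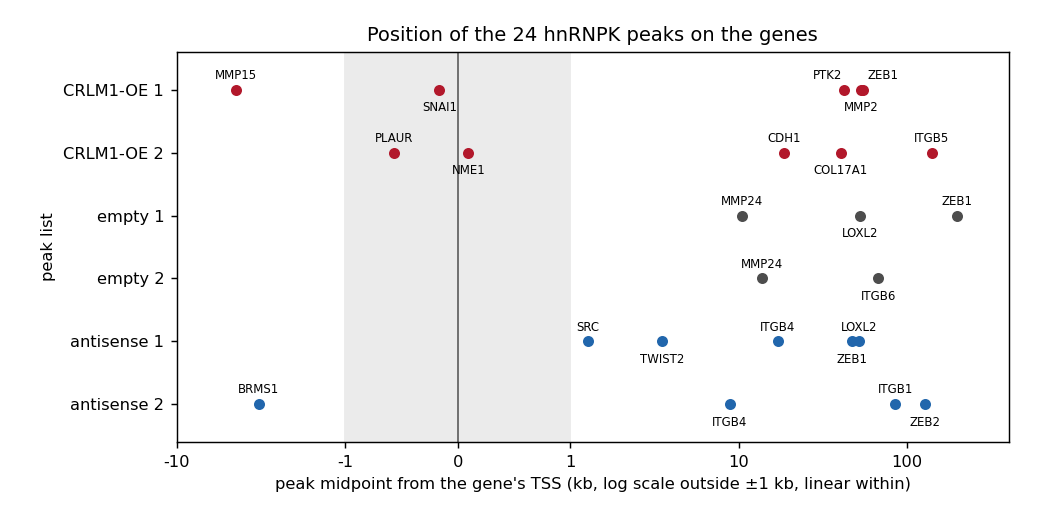
Each point is 1 of the 24 peaks, placed by the signed distance of its midpoint from the TSS of its gene in kb (negative is upstream, linear within 1 kb and logarithmic outside), with the lists as rows. The shaded band spans 1 kb to each side of the TSS. The points inside the band are SNAI1, PLAUR and NME1, all in CRLM1-OE lists, and SRC lies just outside it by its midpoint.

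By midpoint, 17 of the 24 peaks were in introns, 4 upstream, 1 in an untranslated region, 1 in another exon and 1 downstream, and 0 in coding sequence. The shares of all peaks in these regions were not computed. Of the 24 scores, 18 were under 60, where 59.3% to 68.5% of all peaks of a list were. The median rank was at 51.1% of the list, near the middle. ITGB4, SNAI1 and ITGB1 held the 3 peaks in the top 10% of a list, where 10% of all peaks lie by construction.

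Counted per list, CRLM1-OE had peaks on 5 and 5 of the 50 genes, the empty control on 3 and 2, and the antisense control on 5 and 4. Among all protein-coding genes the CRLM1-OE shares were 10.6% and 9.38%, beside 10.0% and 10.0% of the 50 genes. Those of the empty control were 3.5% and 5.71%, beside 6.0% and 4.0% of the 50. The antisense control had 5.7% and 5.84%, beside 10.0% and 8.0% of the 50. CRLM1-OE thus had a mean of 5.0 ± 0.0 genes (SD, n = 2), 2.5 more than the empty control (2.5 ± 0.71) and 0.5 more than the antisense control (4.5 ± 0.71). The last difference is smaller than the spread between the antisense control replicates. No gene was shared by the 2 CRLM1-OE lists, so the SD of 0.0 comes from equal counts of different genes. No p is given for these counts, because the genes were chosen as a list.

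Set beside genes of like length and GC, the CRLM1-OE counts were close to or below the number at their rate. No test was made of the difference. At the rate of the 200 nearest genes, 6.12 and 5.15 genes would carry a peak in the CRLM1-OE lists, 1.82 and 3.16 in the empty control and 3.20 and 3.22 in the antisense control. The observed count over this number was 0.894 ± 0.109 with CRLM1-OE (mean ± SD, n = 2), while the empty control had 1.14 ± 0.72 and the antisense control 1.40 ± 0.23. In strata of 5 by 5 bins the ratios were 0.735 ± 0.094, 0.768 ± 0.426 and 1.08 ± 0.18. The bins are coarse at the long end, since the 19 listed genes in the longest of the 5 length bins had a mean length of 151 kb against 240 kb for all 4007 genes of that bin.

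The order of the groups changed when the lists were made equal in length. When each list was cut to its 1619 highest-scoring peaks, CRLM1-OE had 2 and 1 of the 50 genes, the empty control 3 and 1 and the antisense control 4 and 4. The mean difference then reversed to −0.5 against the empty control and −2.5 against the antisense control. From the TSS, the nearest peak had a median distance over the 50 genes of 291 and 318 kb with CRLM1-OE against 209 and 252 kb for all protein-coding genes, of 694 and 325 kb in the empty control against 790 and 435 kb, and of 364 and 401 kb in the antisense control against 413 and 403 kb.

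**Figure D4:**
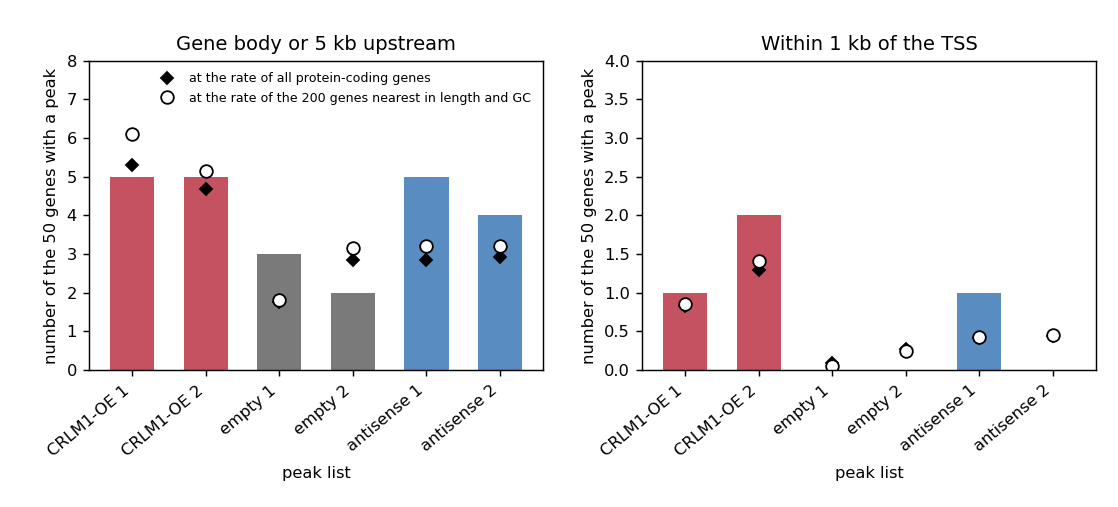
Bars give the number of the 50 genes with a peak in each list (red CRLM1-OE, grey empty control, blue antisense control), on the gene body or 5 kb upstream at left and within 1 kb of the TSS at right. Diamonds mark the number at the rate of all protein-coding genes and circles the number at the rate of the 200 genes nearest in length and GC. The CRLM1-OE bars at left stand at 5 and 5, beside circles at 6.12 and 5.15.

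At promoters the counts were smaller. Within 1 kb of the TSS, CRLM1-OE had 1 gene (SNAI1) and 2 genes (PLAUR and NME1), where 1.65% and 2.59% of all protein-coding genes had a peak. The empty control had 0 and 0 (background 0.19% and 0.544%), and the antisense control had 1 (SRC) and 0 (0.839% and 0.889%). The 4 genes in any list are 8.0% of the 50, beside 5.73% of all protein-coding genes and 6.2% of those nearest in length and GC. At the rate of the nearest genes, 0.86 and 1.41 genes would carry a promoter peak in the CRLM1-OE lists.

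Few of the genes met the rule in both lists of a group. With CRLM1-OE there were 0, where 2.52% of all protein-coding genes met it in both lists. MMP24 alone had a peak in both empty control lists (background 0.669%), and ITGB4 alone in both antisense control lists (0.884%). The stricter pattern of both CRLM1-OE lists without any control list held for 0 of the 50 genes, beside 1.05% of all protein-coding genes. With at least 1 CRLM1-OE list and without any control list there were 9 genes (18.0%), beside 11.4% of all protein-coding genes and 14.1% of those nearest in length and GC. These were SNAI1, CDH1, COL17A1, MMP2, MMP15, PLAUR, ITGB5, PTK2 and NME1.

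For single genes, the number of peaks in the CRLM1-OE lists was compared with that in the 4 control lists by an exact two-sided permutation test of the library labels. Its 15 arrangements allow no p under 0.133. The smallest p among the 50 genes was 0.667, shared by those 9 genes, and the exact permutation p was 0.8 for ITGB4 and MMP24, with all adjusted values at 1. Over the 5656 protein-coding genes with a peak, 0 had an unadjusted or adjusted p under 0.05, which this design cannot reach.

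The 24 peaks varied widely in the C-rich sequence known for hnRNPK. CCCC, searched on both strands with overlaps counted, was present in 21 of 24, where 84.1% to 90.5% of all peaks of a list had it. It was absent from the peaks on ZEB2 and ITGB6 and from the replicate 2 peak on MMP24. It was densest on SRC (45.5 per kb), SNAI1 (36.9 per kb) and ITGB4 in antisense control replicate 1 (31.1 per kb). CCCC density rises with GC content, and peaks of the same list with GC within 2 percentage points had medians of 43.95, 35.2 and 21.7 per kb for these 3. Of the 24 peaks, 15 were above such a median. CCCTCCCC was found in 3 peaks, on COL17A1, BRMS1 and SRC, where 6.24% to 17.2% of all peaks of a list held it. These matches describe the letters only.

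**Figure D5:**
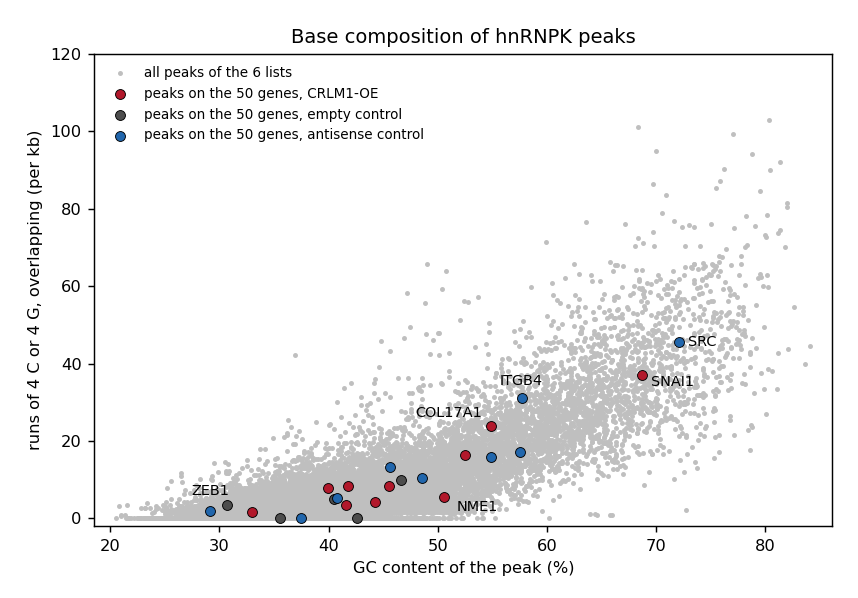
Each grey point is a peak of the 6 lists, placed by its GC content in percent and by the number of overlapping runs of 4 C or 4 G per kb, and coloured points are the 24 peaks on the 50 genes by group. SRC, SNAI1 and ITGB4 lie above and to the right of ZEB1, all within the cloud of other peaks. 1 of 16214 peaks lies above the plotted range.

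A wider set of 107 related genes was read the same way. At least 1 list had a peak on 46 of them (43.0%, beside 28.2% of all protein-coding genes and 37.5% of those nearest in length and GC). By family these were 13 of 20 focal adhesion adaptors, 11 of 21 other junction genes, 8 of 24 other metalloproteases and inhibitors, 6 of 17 other integrins, 4 of 10 other laminins and 4 of 15 other regulators and matrix cross-linkers. No share of genes nearest in length and GC was computed per family, so these family counts are not compared with a background. Per list the CRLM1-OE numbers were 18 and 13 (16.8% and 12.1%, beside 10.6% and 9.38% of all protein-coding genes and 14.4% and 12.1% of the nearest). In the empty control they were 5 and 9 (4.67% and 8.41%, beside 3.5% and 5.71% of all and 4.16% and 8.402% of the nearest). The antisense control had 11 and 9 (10.3% and 8.41%, beside 5.7% and 5.84% of all and 7.62% and 7.90% of the nearest). The CRLM1-OE lists, with the most related genes, are also the longest. A promoter peak was present on 7 of the 107 (6.54%, beside 5.73% of all protein-coding genes and 6.53% of the nearest).

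Related genes with peaks in 3 lists included ITGB2, an integrin beta subunit of leukocytes, TIMP3, a metalloprotease inhibitor, and PARVB (beta-parvin), a focal adhesion adaptor. None of their peaks lay within 1 kb of the TSS. ITGB2 had peaks in CRLM1-OE replicate 1 (upstream of the TSS) and in both empty control lists (20771 and 17174 bp past the TSS).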

How the data were processed

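ChIP-seq libraries of HCT116 cells were compared as 6 deposited peak lists. Per the labels and the study, the authors used cutadapt for adapters, Bowtie2 for alignment to GRCh38, and MACS2 for peaks of each immunoprecipitated library against its own input. Each deposited list gives intervals and a score, used here only to rank peaks within a list. No score was under 50, which, read as 10 times −log10 p, is a p of 1e-05. The methods instead name a q-value cutoff, so the caller settings behind the deposited score are unclear. The depth of the libraries is unknown. The number of sample columns left unused was 0.

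Peaks on chromosomes 1 to 22, X and Y (16214) were joined to GENCODE release 44 by at least 1 bp of overlap, using Python 3.11.15, numpy 2.4.6 and pandas 2.3.3 (figures with matplotlib 3.10.9). GENCODE may differ from the authors' annotation. The joins were tested on simulated data. The background was all protein-coding genes, strata of 5 length by 5 GC bins, and the 200 nearest genes by log length and GC, the last added after the data were seen because the simulation showed a bias of the bins. Repeated sequence was the share of 16-base words with at least 50 copies in GRCh38, on both strands. Counts are given with the mean and SD over 2 lists. Single genes were tested by an exact permutation test with Benjamini-Hochberg adjustment, the smaller tail doubled.

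The genes and lists were chosen with earlier results of these data known. Genes were named in full when they had a peak within 1 kb of the TSS, in 2 or more lists or in the top 10% of a list, along with SNAI1, SNAI2, SNAI3, ZEB1, VIM and CDH1. The remaining genes got 1 value each, and related genes were named with promoter peaks in both lists of a group or peaks in 3 or more lists, of which 1 is not reported here. Alternatives changed the score cutoff, list length, gene window, overlap rule and background, and left out each replicate. Whether replicates were separate cultures is not stated beyond the label of biological replicates.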

Additional observations from a re-analysis of the deposited data

How the results depend on the processing

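Of the values under the alternatives, 54 changed by less than the spread between replicates (or 1.5 times for the count that has no such spread). A further 25 moved by at least that much and 4 reversed. The ratios to like genes use the strata of 5 by 5 bins unless another background is named. With all peaks they were 0.735 (CRLM1-OE), 0.768 (empty control) and 1.08 (antisense control), and the simulation showed a bias of the bins. With peaks at or above the median score, the difference in genes with a peak was 1.0 against the empty control. It reversed to −1.0 against the antisense control. Promoter differences were 0.5 and 0.0, and the ratio to like genes was 0.504 with CRLM1-OE and 1.35 in the antisense control. With the 1000 highest-scoring peaks these were 0.5, −1.5 (reversed), 0.5 and 0.0, and the ratios 0.453 (CRLM1-OE), 0.289 (empty control) and 1.26 (antisense control). At the length of the shortest list they were −0.5 and −2.5 (both reversed), 0.5 and 0.0, with ratios of 0.461 and 1.27. With the gene body alone the difference from the empty control was 1.5 and the CRLM1-OE ratio 0.628. Bins of 10 by 10 gave 0.844 for CRLM1-OE, no strata gave 1.00, 1.21 and 1.56 for CRLM1-OE, empty and antisense control, and the 200 nearest genes gave 0.894 for CRLM1-OE and 1.40 for the antisense control. Without 1 CRLM1-OE replicate, the genes found in the other CRLM1-OE list and in no control list numbered 4 to 5 rather than 0, since presence in 1 list then suffices. Cutting lists leaves fewer peaks by construction, and the cause of the reversed order was not tested. Paired by replicate number (added after the data were seen), CRLM1-OE minus the empty control was 2 and 3 genes (mean 2.5) and minus the antisense control 0 and 1 (mean 0.5), and for promoters 1 and 2 (mean 1.5) and 0 and 2 (mean 1.0), the same means as unpaired. The labels share only a number, and with 2 pairs no test was made. Depth limits all counts: an absent peak may be a site below the caller's cutoff in that library.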
